A study of Homo sapiens with 18 samples.

Results

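The 9 genes described here encode the receptor chains of type I interferons (IFNAR1 and IFNAR2) and of interferon gamma (IFNGR1 and IFNGR2), the kinases JAK1 and TYK2, and the transcription factors STAT2, IRF1 and IRF9. They are 9 of the 61552 genes of the count table, chosen by name and function with earlier results on these data known. All 9 were among the 19038 genes tested. Total RNA was sequenced from HCT116, a human colorectal cancer cell line, in 18 libraries that form 6 groups of 3. All cells were knock-ins at IκBα, the inhibitor that holds NF-κB in the cytoplasm and is encoded by NFKBIA. The controls carried the wild-type protein (WT), one line carried the N108 mutant, and one carried the M3 mutant, in which the residues at positions 84, 85 and 86 (H, E and E) are changed to A. Each line was analysed untreated and after human TNFα at 0.1 µg/mL for 40 min. The labels describe neither clones nor separate cultures, so a p-value sets a difference against the scatter among these libraries alone, possibly technical scatter, and the effect of a mutation cannot be told apart from that of the line that carries it.

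Type I interferons bind IFNAR1 and IFNAR2, whose kinases TYK2 and JAK1 phosphorylate STAT2, among others. STAT2 and IRF9 are parts of the complex ISGF3, which binds the interferon-stimulated response element (ISRE). Interferon gamma binds IFNGR1 and IFNGR2, which signal through the kinases JAK1 and JAK2, and the activated factor, called GAF, binds the gamma-activated site (GAS). IRF1 is a target of GAF and of NF-κB, and is itself a transcription factor of antigen presentation and antiviral genes.

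The sequence before the IRF1 start is shown because IRF1 was the member with the largest change after TNF, and that of IFNGR1 because it also rose but held none of the motifs searched. RefSeq windows of 250 bases upstream of a gene's start (GRCh38.p14) were found for 8 of the 9 members, with more than 1 window for some, and IFNAR2 had none. Both strands were searched for GAS (TTCNNNGAA), for an ISRE core (GAAANNGAA), which shares its last 3 letters with GAS, and for the NF-κB consensus by name, called κB below (3 G, a purine, 2 of any base, 2 pyrimidines and 2 C). Of all 35116 windows in the table, 6.6% held GAS, 6.9% the ISRE core and 10.0% the κB consensus. The part of each window outside GENCODE exons is printed on the gene's strand, 5′ to 3′, which is the minus strand for both, and capitals mark the matches, GAS first and κB second. The IRF1 stretch is chr5:132490799-132491023 and the IFNGR1 stretch is chr6:137219450-137219635.
IRF1 upstream: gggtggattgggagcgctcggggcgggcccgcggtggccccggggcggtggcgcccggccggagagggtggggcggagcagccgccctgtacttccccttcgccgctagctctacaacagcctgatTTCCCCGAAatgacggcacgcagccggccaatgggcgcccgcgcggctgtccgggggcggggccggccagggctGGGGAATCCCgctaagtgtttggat
IFNGR1 upstream: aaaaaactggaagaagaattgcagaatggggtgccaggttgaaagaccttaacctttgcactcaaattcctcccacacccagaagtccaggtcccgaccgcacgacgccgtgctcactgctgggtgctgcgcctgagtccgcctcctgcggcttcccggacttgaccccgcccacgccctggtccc
In the IRF1 window the GAS match lay 124 to 116 bases before the start and the κB match 50 to 41 bases before it, and they did not overlap. The IFNGR2 window lies within a GENCODE exon, so only its κB matches are given: GGGAGGCTCC at chr21:33403227-33403236, GGAAAGTCCC at chr21:33403314-33403323 and GGGACGCCCC at chr21:33403400-33403409. The IRF9 window held a GAS match, TTCTGGGAA at chr14:24161202-24161210. No window of IFNAR1, IFNGR1, JAK1, TYK2 or STAT2 held any of the 3 motifs. A match of letters describes the sequence and is not a measured site.

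The libraries held 49021907 to 76947190 counts each, and the lowest count of any member in any library was 47, for IRF9. NFKBIA, the gene carrying the knock-ins, was read in every library and rose 8.28-fold with TNF in WT cells, 9.12-fold in N108 and 12.4-fold in M3, while untreated N108 cells held 3.03-fold less of it than WT. This level does not test the genotype. Marker lists of other cell types were low, in CPM (a gene's share of its library's counts, in the usual CPM unit and scaled by the TMM method). The 13 leukocyte markers summed to 3.21 to 4.77 CPM in the WT libraries and to 0.815 to 1.37 CPM in the mutants. In WT most of this was LYZ (lysozyme), at 2.67 CPM in untreated WT, 0.113 in N108 and 0.207 in M3, and CSF1R was higher in the untreated mutants at 0.201 and 0.215 CPM against 0.0349. CD3D, MS4A1, NKG7 and TYROBP, which define lymphocytes and myeloid cells, were at 0 or nearly so in every group and were named after their values were seen. The 8 fibroblast markers summed to 19.8 to 27.7 CPM in WT and 29 to 39.2 CPM in the mutants, and the 6 endothelial ones to 1.07 to 2.44 CPM in all libraries. The 10 colon epithelium markers summed to 6835 to 7767 CPM in the WT libraries, 5295 to 5953 CPM in N108 and 4370 to 4916 CPM in M3, and the part of these marker differences in the results on the lines was not tested. In bulk RNA, fewer cells expressing a gene and less RNA per cell cannot be told apart.

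The ligands were nearly absent. Of 15 interferon ligand genes, 7 had no count in any library, among them IFNG (interferon gamma) and IFNK. A count of 0 allows up to 3 counts, which is 0.0612 CPM in the smallest library, and this limit covers counting error only. IFNB1 had 1 count over the 18 libraries, IFNA5 had 3, and the type III ligands IFNL1, IFNL2 and IFNL3 had 23, 16 and 23. Only IFNE, a type I interferon of epithelia, was tested, and it stood at 0.879 CPM in untreated WT, at 0.406 in untreated N108 and 0.542 in untreated M3. It was lower in both untreated mutants (log2 fold change -1.11, SE 0.255, adjusted p = 0.0008 for N108; -0.71, SE 0.248, adjusted p = 0.017 for M3; edgeR). Between treated cells it was lower in N108 (-0.94, adjusted p = 0.0074) and did not pass in M3 (-0.13, adjusted p = 0.69). It passed the test after TNF in none of the 3 lines.

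Per kilobase of exon, the untreated WT cells held most of JAK1 (19.9 ± 0.573 CPM per kb, SD, n = 3), followed by IFNGR2 (18), TYK2 (14), IFNGR1 (12.5), STAT2 (10.5), IFNAR1 (8.14), IRF1 (4.28), IFNAR2 (2.47) and IRF9 (0.796). The libraries of neighbouring genes in this order did not overlap. With the longest transcript as the length, IFNGR1 and STAT2 changed places and the rest of the order stayed. Within each receptor the chains differed in opposite ways: the level of IFNAR2 per kb was below that of IFNAR1, and that of IFNGR2 above that of IFNGR1. The level of IFNAR2 is uncertain, because 44.2% of the exon bases in its length are shared with a readthrough gene on the same strand. In untreated N108 and M3 cells IFNGR2 came first in place of JAK1. After TNF, IRF1 was first in WT, with at least 28.5 CPM per kb in each library against at most 23.6 for IFNGR2, second in M3, and overlapped with JAK1 in N108. IRF9 was last in all 6 groups. Its length includes 1838 bases (48.4%) shared with a gene on the same strand, as many as its longest transcript has. How reads from those bases were counted is not known, so the level and place of IRF9 are uncertain.

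TNF raised IRF1 and both chains of the interferon gamma receptor in all 3 lines, and no member of the type I receptor passed the test in any line. Of the 9 members, 3 were higher and 2 lower after TNF in WT, where 5.18% of all genes tested passed. In N108 the counts were 3 higher and 0 lower beside 1.2% of all genes, and in M3 again 3 and 0 beside 1.38%. The median log2 change of the 9 members was 0.13 in WT, 0.03 in N108 and 0.08 in M3, against 0.01, 0.0 and 0.0 over all genes tested.

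IRF1 stood at 32.8, 33.6 and 33.8 CPM in untreated WT and at 222.5, 229.8 and 237.7 CPM after TNF. In N108 the untreated libraries held 21.4, 19.3 and 21.8 CPM and the treated ones 130.5, 144.1 and 114.4. In M3 they held 17.9, 17.1 and 19.0 CPM untreated and 153.3, 149.7 and 153.6 with TNF. Every treated library was thus above every untreated one, and the treated N108 libraries were the most widely spread (SD 14.9 CPM, against 7.61 in WT and 2.18 in M3). The rise was 6.89-fold in WT (log2 2.78, SE 0.0644, adjusted p = 1.5e-22), 6.23-fold in N108 (2.64, SE 0.0654, adjusted p = 9e-22) and 8.47-fold in M3 (3.08, SE 0.0669, adjusted p = 2.9e-23), all by edgeR's quasi-likelihood test. Exons of IRF1-AS1, on the opposite strand, cover 22% of the exon bases of IRF1, at 0.798 to 1.99 CPM, and IRF1-AS1 did not pass the test after TNF in any line (log2 -0.18, 0.23 and 0.33).

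**Figure D1:**
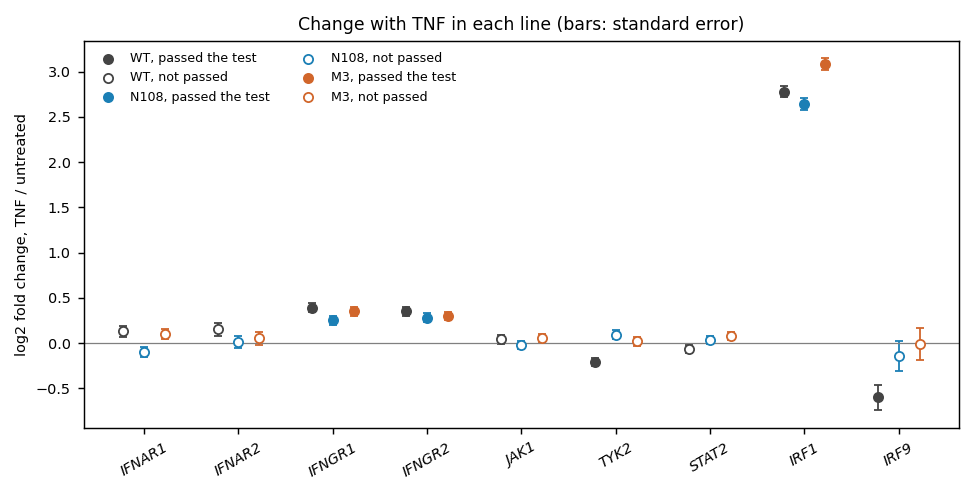
Log2 fold change of TNF against untreated (y axis) for the 9 members (x axis) in WT, N108 and M3, with bars for the standard error and filled points for an edgeR adjusted p below 0.05. IRF1 lies between 2.64 and 3.08 in the 3 lines, and IFNGR1 and IFNGR2 between 0.25 and 0.39. TYK2 (-0.21) and IRF9 (-0.60) are lower and filled in WT, and the other points lie between -0.14 and 0.15.

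IFNGR1, the ligand-binding chain of the interferon gamma receptor, stood at 41.6, 40.7 and 40.4 CPM in untreated WT and at 50.7, 53.1 and 57.0 CPM after TNF, a rise of 1.31-fold (log2 0.39, SE 0.0481, adjusted p = 2.7e-06, edgeR). In N108 it went from 57.0, 57.8 and 56.1 CPM to 65.7, 67.6 and 70.5 (log2 0.25, SE 0.0472, adjusted p = 0.0018), and in M3 from 42.3, 41.7 and 40.0 to 51.6, 53.5 and 53.5 (log2 0.35, SE 0.0481, adjusted p = 1.5e-05). The treated libraries did not overlap with the untreated ones of the same line, and the untreated N108 libraries lay above the treated M3 libraries and within or above the range of treated WT.

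IFNGR2, the accessory chain that brings JAK2, rose from 53.3, 54.4 and 51.9 CPM to 67.8, 66.0 and 69.8 in WT (log2 0.35, SE 0.0478, adjusted p = 1.5e-05, edgeR). In N108 it rose by 0.28 (SE 0.0475, adjusted p = 0.00043), to 68.7, 78.5 and 73.4 CPM from 61.6, 60.4 and 59.3. In M3 it rose by 0.30 (SE 0.0476, adjusted p = 0.00017), to 73.8, 77.9 and 75.2 CPM from 60.5, 61.8 and 61.9. Within each line, all treated libraries lay above all untreated ones. TMEM50B overlaps 12.8% of the exon bases of IFNGR2 on the opposite strand, at 29.7 to 37.8 CPM, and with TNF it changed by 0.10, -0.12 and 0.08 (log2), without passing the test.

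TYK2 and IRF9 fell with TNF in WT and did not pass the test in the mutants. TYK2 stood at 94.8, 96.7 and 93.6 CPM untreated and at 83.9, 83.0 and 78.7 CPM after TNF in WT (log2 -0.21, SE 0.0493, adjusted p = 0.0072, edgeR), against 0.09 in N108 and 0.02 in M3. With the GC trend removed the change of TYK2 was -0.13 (adjusted p = 0.034). Without WT TNF replicate 3 the adjusted p was 0.073, and without WT untreated replicate 2 it was 0.051. IRF9 stood at 3.10, 2.99 and 2.96 CPM untreated and at 2.28, 2.20 and 1.55 CPM after TNF in WT (log2 -0.60, SE 0.14, adjusted p = 0.0088). Without WT TNF replicate 3, the lowest of these libraries, its change was -0.43 with an adjusted p of 0.13. These values are uncertain, as 48.4% of the exon bases of IRF9 are shared with a gene on the same strand. In N108 and M3 the change of IRF9 was -0.14 (SE 0.165) and -0.01 (SE 0.179). Against the change in WT the interaction was 0.45 in N108 (SE 0.217, adjusted p = 0.22, edgeR) and 0.59 in M3 (SE 0.228, adjusted p = 0.39). Neither passed, and with standard errors this wide the test does not show that the changes were alike.

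IFNAR1, IFNAR2, JAK1 and STAT2 did not pass the test after TNF in any line, with log2 changes between -0.10 and 0.15. The standard errors of these changes lay between 0.0448 and 0.0708. IFNAR1 stood at 50.0 to 53.3 CPM in untreated WT and 55.3 to 56.5 CPM after TNF. JAK1 overlapped between untreated (123, 124.3 and 129.8 CPM) and treated WT (136.0, 129.6 and 123.3 CPM).

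The response to TNF was then compared between lines by an interaction term. Of the 9 members, 1 passed for N108 against WT, beside 2.62% of all genes, 0 for M3 against WT, beside 0.315%, and 1 for N108 against M3, beside 0.0788%. The 1 for N108 against WT was TYK2, whose change was higher in N108 by 0.30 on the log2 scale (SE 0.0699, adjusted p = 0.02, edgeR). It was 0.12 with an adjusted p of 0.28 once a trend with transcript GC content was removed, and 0.27 to 0.29 with adjusted p of 0.061 to 0.073 without WT untreated replicate 2, WT TNF replicate 3, N108 untreated replicate 2 or N108 TNF replicate 1. The 1 for N108 against M3 was IRF1, whose rise was smaller in N108 by a log2 difference of -0.44 (SE 0.0898, adjusted p = 0.047), and this was lost under 3 other settings. It was also lost without N108 untreated replicate 1 or 3, N108 TNF replicate 1, M3 untreated replicate 1 or 2 or any M3 TNF replicate, at adjusted p of 0.087 to 0.19. For M3 against WT the difference of IRF1 was 0.30 (SE 0.0885, adjusted p = 0.17, edgeR). IRF1 passed for that comparison with no filter on low counts (adjusted p = 0.014) and with only the groups compared (0.032). The rises of IFNGR1 and IFNGR2 did not differ between lines by this test, with log2 differences from -0.14 to -0.02 and standard errors of 0.0671 to 0.068.

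**Figure D2:**
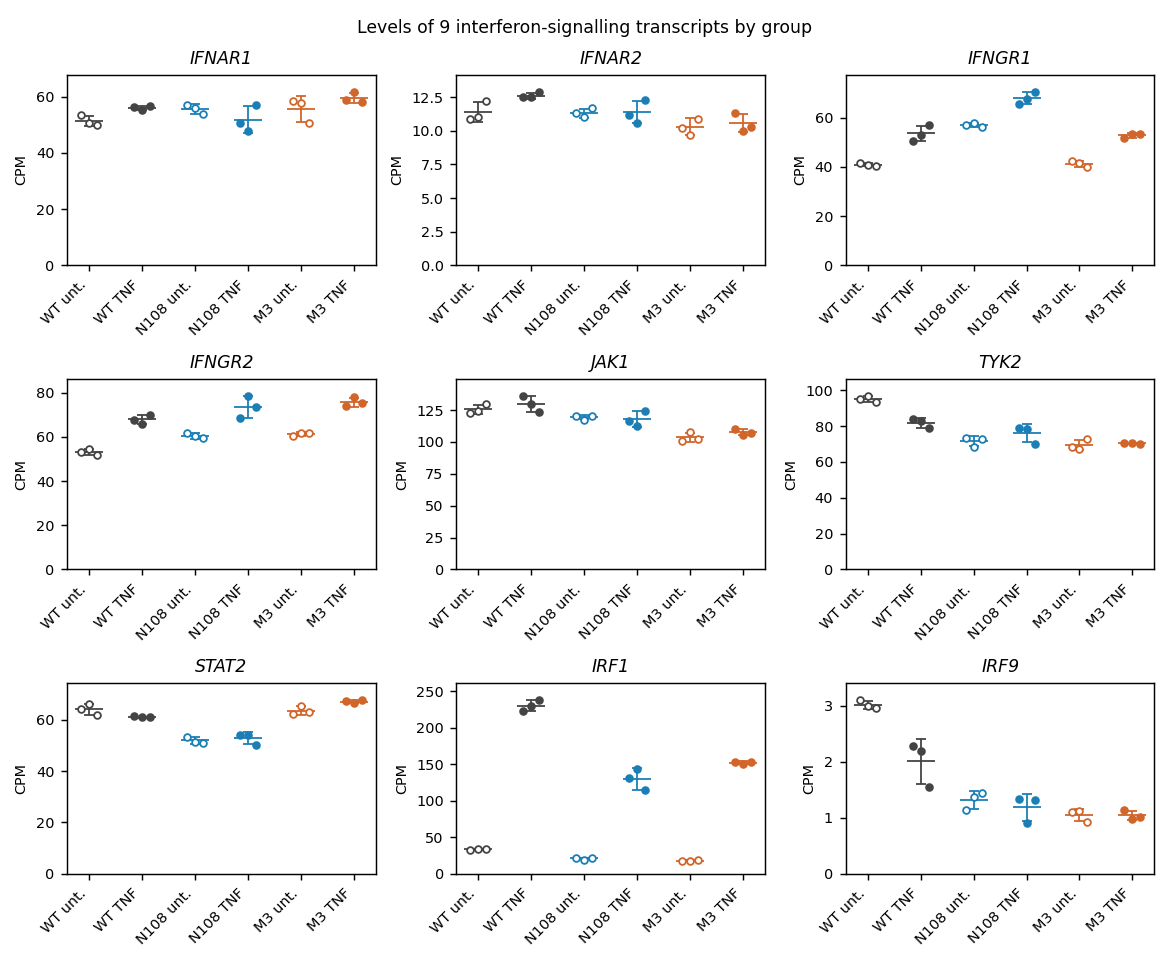
CPM (y axis, linear from 0) of each of the 9 members in the 18 libraries by group (x axis; unt. stands for untreated), with open points for untreated and filled points for TNF-treated libraries, a line for the mean and bars for the SD over 3 libraries. IRF1 rises from at most 33.8 CPM to at least 114.4 CPM, IFNGR1 is highest in N108, and IRF9 is highest in untreated WT at 2.96 to 3.10 CPM.

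Between untreated lines, the factors IRF1 and IRF9 and the kinase TYK2 were lower in both mutants than in WT, and IFNGR2 was higher in both. IFNGR1 was higher in N108 and STAT2 lower in N108, while JAK1 was lower in M3. In N108, 2 members were higher and 4 lower, where 42.4% of all genes tested passed. In M3, 1 was higher and 4 lower, beside 52.9% of all genes. With TNF the counts were 2 higher and 4 lower in N108, beside 46.7%, and 2 higher and 5 lower in M3, beside 54.7%. With shares of all genes this large, counts of 6 and 5 of 9 untreated are no result about the members, and the sizes of the differences carry the description. Both mutants are compared with the same WT libraries, so their values are given side by side and are not independent.

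IRF9, the DNA-binding subunit of ISGF3, showed the largest differences of the members between untreated lines. It stood at 2.96 to 3.10 CPM in untreated WT, at 1.14, 1.37 and 1.44 CPM in N108 and at 1.11, 1.12 and 0.929 CPM in M3. This was 2.29-fold lower in N108 (log2 -1.19, SE 0.144, adjusted p = 1.2e-07, edgeR) and 2.86-fold lower in M3 (-1.52, SE 0.152, adjusted p = 2.3e-09). With TNF it was 1.67-fold lower in N108 (-0.74, adjusted p = 0.00042) and 1.91-fold lower in M3 (-0.93, adjusted p = 2.5e-05). The mutant libraries lay below the WT libraries of the same treatment without overlap. These values are uncertain, because 48.4% of the exon bases of IRF9 are shared with ENSG00000259529 on the same strand, and reads from them cannot be given to one gene. That gene stood at 0.779 to 1.32 CPM and differed from WT by -0.05 in N108 and -0.25 in M3 untreated, without passing the test. In the authors' deposited table of log2 values the same differences of IRF9 were -0.38 and -0.46, in the same direction and smaller.

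IRF1 was lower in untreated N108 by a log2 difference of -0.68 (1.6-fold, SE 0.0649, adjusted p = 1.8e-09, edgeR) and in untreated M3 by -0.89 (1.86-fold, SE 0.066, adjusted p = 6e-12). With TNF it was 1.77-fold lower in N108 (-0.83, adjusted p = 6.3e-12) and 1.51-fold lower in M3 (-0.60, adjusted p = 2.2e-09). The ranges given above show that all 6 libraries of each treatment from the mutants lay below those of WT. Thus IRF1 rose with TNF from a lower level to a lower level in both mutants.

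Of the kinases, TYK2 stood at 93.6 to 96.7 CPM in untreated WT, at 73.3, 68.1 and 73.0 CPM in N108 and at 68.2, 67.2 and 72.5 CPM in M3. The log2 differences were -0.41 (SE 0.0493, adjusted p = 1.1e-07, edgeR) and -0.46 (SE 0.0494, adjusted p = 1.1e-08). With TNF they were -0.11 in N108 (adjusted p = 0.072) and -0.22 in M3 (adjusted p = 0.0005). The N108 value was -0.20 with an adjusted p of 4.4e-05 after the trend with GC content was removed. It also passed narrowly with DESeq2 (-0.12, adjusted p = 0.043) and with DESeq2 size factors in edgeR (adjusted p = 0.049). Without WT TNF replicate 3 or N108 TNF replicate 1 or 2 it passed at adjusted p of 0.039 to 0.045. JAK1, which serves both receptors, was lower in M3 by -0.28 untreated (100.9, 107.7 and 102.3 CPM against 123, 124.3 and 129.8, adjusted p = 1.4e-05) and by -0.27 with TNF (adjusted p = 2.2e-05). In N108 JAK1 differed by -0.07 untreated (adjusted p = 0.22, but -0.11 with 0.02 after the GC trend was removed) and by -0.14 with TNF (adjusted p = 0.017). The latter was lost with only the groups compared (adjusted p = 0.06) and without WT TNF replicate 1 and without N108 TNF replicate 1 or 2, at adjusted p of 0.056 to 0.11.

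The interferon gamma receptor chains differed in the other direction. IFNGR1 was 1.39-fold higher in untreated N108 than in WT (log2 0.48, SE 0.0478, adjusted p = 4.4e-09, edgeR) and 1.27-fold higher with TNF (0.34, adjusted p = 1.2e-06), and in M3 it differed by 0.01 (SE 0.0483) and -0.02 (SE 0.0478). IFNGR2 was higher in untreated N108 by 0.18 (adjusted p = 0.0027) and in untreated M3 by 0.21 (adjusted p = 0.00065), and in M3 with TNF by 0.16 (adjusted p = 0.0066). In N108 with TNF its value of 0.12 passed at an adjusted p of 0.047. It was lost under several settings, without either N108 TNF replicate 2 (0.07, adjusted p = 0.27) or 3 (0.069) or WT TNF replicate 1 or 2 (0.093 and 0.16), and was 0.03 with the trend on GC content removed.

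For the type I receptor and STAT2, the log2 differences from WT lay between -0.30 and 0.14. IFNAR1 did not pass in either mutant against WT in the main fit, with log2 differences from -0.11 to 0.12. In untreated N108 its difference of 0.12 (adjusted p = 0.12, edgeR) passed with only the groups compared (adjusted p = 0.019). Without N108 TNF replicate 3, its highest library of that group, IFNAR1 was lower than WT in N108 with TNF (-0.19, adjusted p = 0.0086) and its interaction with TNF passed (-0.31, adjusted p = 0.013). Without M3 untreated replicate 3 it was higher in untreated M3 (0.18, adjusted p = 0.0098). IFNAR2 was lower than WT in M3 with TNF (11.3, 10.0 and 10.3 CPM against 12.5, 12.5 and 12.9, log2 -0.25, adjusted p = 0.0034, edgeR) and did not pass in the other 3 comparisons with WT. It passed without M3 untreated replicate 3 in untreated M3 (-0.19, adjusted p = 0.036) and without N108 TNF replicate 3 in N108 with TNF (-0.20, adjusted p = 0.029), and with the GC trend removed in both (-0.17, adjusted p = 0.028, and -0.18, adjusted p = 0.023). Its values are uncertain too, since 44.2% of its exon bases are shared with the readthrough gene IFNAR2-IL10RB, which stood at 0.105 to 0.549 CPM. STAT2, the transactivating subunit of ISGF3, was lower in N108 (53.4, 51.6 and 51.0 CPM against 64.3, 66.3 and 61.8 untreated, log2 -0.30, adjusted p = 3.5e-06). With TNF this was -0.21 (adjusted p = 0.00046). In M3 STAT2 differed by -0.01 untreated and was higher with TNF by 0.14 (adjusted p = 0.012).

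**Figure D3:**
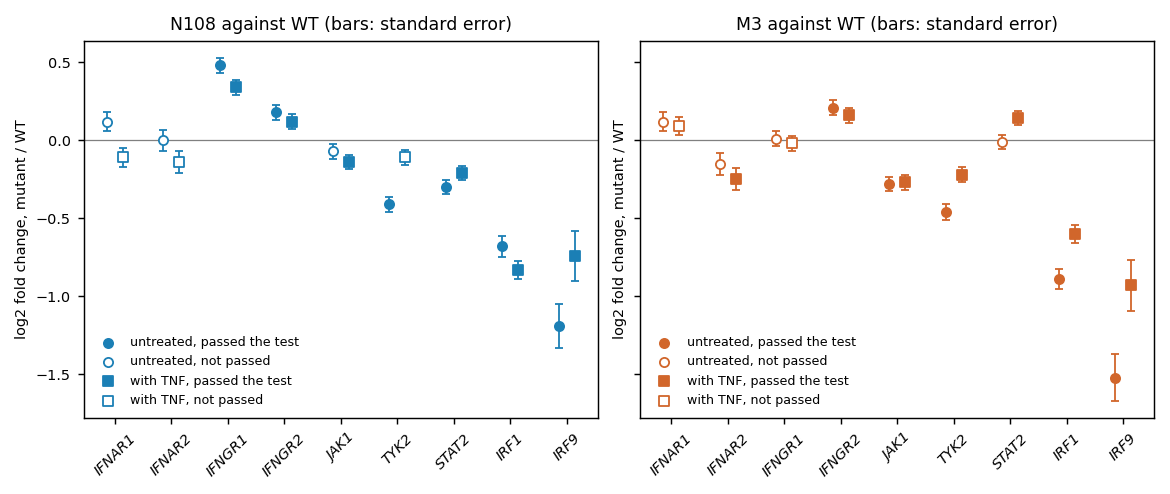
Log2 fold change of N108 (left) and M3 (right) against WT (y axis) for the 9 members (x axis), as circles for untreated and squares for TNF-treated cells, with bars for the standard error and filled symbols for an edgeR adjusted p below 0.05. IRF9 lies lowest in both untreated mutants (-1.19 and -1.52), and IFNGR1 is higher in N108 (0.48 untreated) and near 0 in M3.

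N108 and M3 were also compared with each other. Untreated, 3 members were higher and 1 lower in N108, beside 31.5% of all genes, and with TNF 2 were higher and 3 lower, beside 37.3%. IFNGR1 was higher in N108 by 0.46 untreated and 0.36 with TNF, and STAT2 was lower by -0.29 and -0.34, with adjusted p of 1.1e-05 or less by edgeR and no overlap of libraries. IRF1 was higher in N108 than in M3 untreated (0.21, adjusted p = 0.016) and lower with TNF (-0.23, adjusted p = 0.003, or -0.15 with 0.03 without N108 TNF replicate 3). The untreated value was lost without N108 untreated replicate 1 or 3 or M3 untreated replicate 1 or 2, at adjusted p of 0.051 to 0.093. JAK1 was higher in N108 by 0.21 untreated (adjusted p = 0.0012). With TNF its difference of 0.13 (adjusted p = 0.03) was lost without N108 TNF replicate 1 or 3 or any of the M3 TNF replicates, at adjusted p of 0.05 to 0.16. It was also lost with no filter on low counts (adjusted p = 0.073) and with only the groups compared (0.081). IFNAR1 was lower in N108 than in M3 with TNF (50.5, 47.8 and 57.0 CPM against 58.8, 61.7 and 58.2, log2 -0.20, adjusted p = 0.0084), and by -0.12 (adjusted p = 0.029) with the GC trend removed.

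Other genes of the pathway were counted after TNF beside all genes tested, of which 2.03% rose in WT, 1.1% in N108 and 1.1% in M3. The shares of all genes that fell were 3.15% in WT, 0.0998% in N108 and 0.278% in M3. Of 12 tested receptor chains and JAK kinases outside the members, 2 rose in WT, 1 in N108 and 1 in M3. IFNLR1, the specific chain of the type III interferon receptor, was among them in each line (log2 0.22, 0.30 and 0.30, adjusted p = 0.017, 0.0015 and 0.0021, edgeR). Of 10 tested STAT and IRF factors, 1 rose and 1 fell in WT, the latter being STAT6 (-0.20, adjusted p = 0.0035), and none passed in the mutants. Of 25 regulators, 2 rose and 1 fell in WT, 2 rose in N108 and 1 fell in M3. SOCS1, a feedback inhibitor of JAK kinases, rose from 1.97 to 3.51 CPM in WT (0.84, adjusted p = 0.00055). SOCS3, an inhibitor of cytokine receptors of the gp130 type, fell in WT (-0.31, adjusted p = 0.0011) and in M3 (-0.34, adjusted p = 0.0011).

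The targets that ISGF3, GAF and IRF1 are known for were followed as lists. With TNF, 0 of 38 tested ISGF3 targets passed in WT, 0 in N108 and 1 in M3 (IFIH1, 0.29, adjusted p = 0.018, edgeR). Of 29 tested GAF and IRF1 targets, 4 rose in WT, 2 in N108 and 2 in M3, beside the shares of all genes that rose of 2.03%, 1.1% and 1.1%. ICAM1, an adhesion molecule that is also an NF-κB target, rose by 1.29, 1.5 and 2.15 on the log2 scale, and CD274, which encodes the checkpoint ligand PD-L1, by 0.73, 0.62 and 0.72. TAP1, a peptide transporter subunit, rose in WT (0.26, adjusted p = 0.0018).

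Between untreated lines, 33 of the 38 ISGF3 targets were lower in N108 (median log2 difference -0.85) and 33 in M3 (-0.98), against 21.6% and 26.8% of all genes that were lower, with medians of 0.01 and 0.0. Over all alternatives run, 31 to 34 were lower in each. IFI35 stood at 29.9 CPM in untreated WT, against 9.53 in N108 and 6.67 in M3, and the values of the antiviral gene IFIT1 were 17.3, 4.87 and 4.35 CPM. Of the 29 GAF and IRF1 targets, 21 were lower in each mutant (medians -0.37 and -0.54), with 18 to 22 in N108 and 17 to 22 in M3 over the alternatives. Among them was PSMB10, an immunoproteasome subunit (-1.30 in N108 and -1.53 in M3). These lists were assembled with earlier results on these cells known, so their direction is a description. In the list of other factors, IRF7 was lower in both untreated mutants (15.7 CPM in WT against 5.29 and 6.71 in N108 and M3, log2 -1.57 and -1.23). Of the regulators, 13 of 25 were lower and 2 higher in untreated N108, and 14 lower and 4 higher in untreated M3. The shares of all genes that were higher were 20.9% in untreated N108 and 26.1% in untreated M3. SOCS6 was lower in both (-0.66 and -0.96) and TRIM8, reported as a positive regulator of the pathway through SOCS1, was higher in both (0.79 and 1.11).

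**Figure D4:**
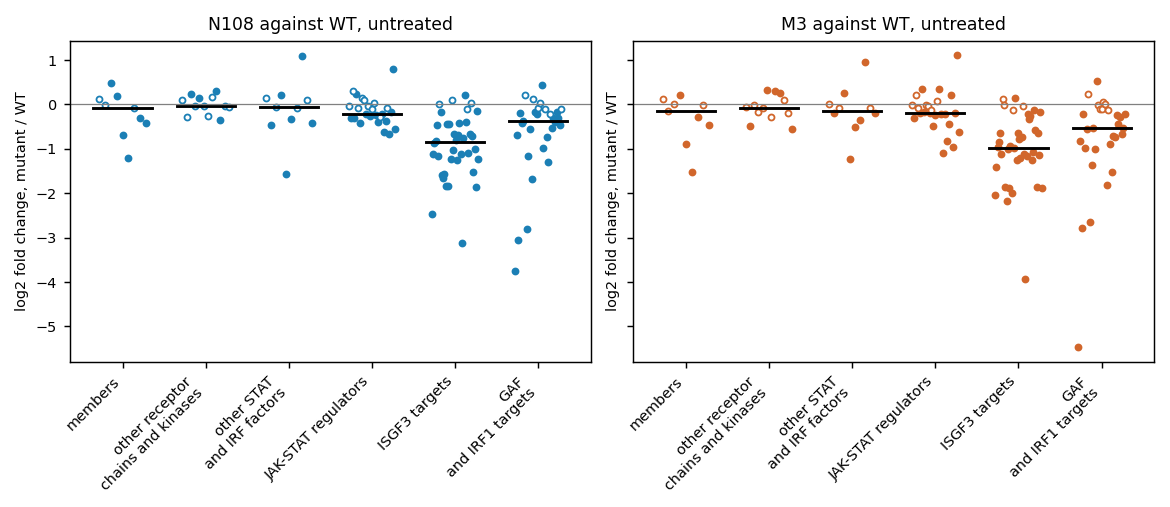
Log2 fold change of untreated N108 (left) and untreated M3 (right) against WT (y axis) for each tested gene of 6 lists (x axis), with filled points for an edgeR adjusted p below 0.05 and a black line at each list's median. The medians of the ISGF3 targets lie at -0.85 and -0.98, and those of the receptor chains and kinases lie near 0.

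Across the 18 libraries, each member was set beside the 13175 genes with a mean of at least 1 CPM, by Pearson's r of log2 CPM, as a description. Libraries of a group share their line and treatment, so the points are not independent. IRF1 was most like TNFAIP3 (r = 0.994), which encodes the NF-κB feedback inhibitor A20, and SDC4 (0.992). IFNGR1 was most like OVOL1 (0.964) and GEM (0.935). IFNGR2 was most like DUSP1 (0.955) and EGR3 (0.951), both immediate early genes. JAK1 was most like LARP4B (0.979) and PSME4 (0.972), TYK2 like SLC4A3 (0.973) and LMF2 (0.968), and STAT2 like WDR6 (0.956) and USP11 (0.944). For IRF9 the genes were HNRNPH1 (0.946) and MCOLN3 (0.942), for IFNAR1 KLHL23 (0.95) and UBXN2B (0.92), and for IFNAR2 CASTOR2 (0.874) and EIF2S2 (0.869). Among the members themselves, TYK2 and IRF9 had the highest r (0.88), followed by IFNAR2 and JAK1 (0.81), while the chains of one receptor had r = 0.68 (IFNGR1 and IFNGR2) and -0.18 (IFNAR1 and IFNAR2).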

How the data were processed

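Per the labels' protocols, total RNA was sequenced as 50 bp paired-end reads. The authors deposited raw read counts per gene for 18 libraries and a normalized table on a log2 scale, used here as a check. All 44 differences between groups called for the members had the same sign in it, with a median gap of 0.04. The largest gap was 1.06, for IRF9 in untreated M3 against WT. For the rises of IRF1 with TNF, which were smaller in that table, the gaps were 0.27 to 0.46. The submitters' processing notes list DESeq2 1.38.3, Subread 2.0.1 (featureCounts), STAR 2.7.8 and Trim Galore 0.6.6, with hg38. Neither the annotation release nor the strand setting is given in the sources used here. GENCODE 29 on GRCh38 gave exon lengths.

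Counts were tested with edgeR 4.0.16 (quasi-likelihood, robust, TMM scaling, filterByExpr at a minimum count of 10) with 6 group means over 18 libraries, 12 residual degrees of freedom and two-sided p-values adjusted by Benjamini-Hochberg over 19038 genes, threshold 0.05, in 12 comparisons. The code was tested on simulated data. Each standard error is the size of the log2 fold change divided by the root of its F statistic. Alternatives were DESeq2 1.42.0, its size factors, other count filters, only the groups compared, a replicate block, removal of a GC trend and omission of each library.

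The members and lists were chosen with earlier results on these data known. All members are named in the main comparisons. From other lists the genes named are among the 3 with the smallest p in each comparison, except 4 leukocyte markers near 0, beside every ligand with counts discussed, and for each member the 2 most alike genes. A planned comparison of protein sequences was not run, and some genes that the rule would name are not reported here.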

Additional observations from a re-analysis of the deposited data

Results flagged for a closer look

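The change of TYK2 with TNF differed between N108 and WT (log2 difference 0.30, adjusted p = 0.02, edgeR interaction term). TYK2 fell by 0.21 in WT, and in N108 its change was 0.09. The part of GC content was not separated from the lines: with a GC trend removed the difference was 0.12 (adjusted p = 0.28), and on leaving out 1 library it was lost in 4 cases (0.061 to 0.073).

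The rise of IRF1 with TNF differed between N108 and M3 (log2 difference -0.44, adjusted p = 0.047, edgeR interaction term), with rises of 2.64 and 3.08. It was lost with the stricter filter (adjusted p = 0.077), with only the groups compared (0.19), with the replicate block (0.12) and on leaving out 1 library in 8 cases (0.087 to 0.19).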

How the results depend on the processing

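Of 108 differences of members tested, 46 passed, 38 of these passed under every alternative run, 8 were lost under at least 1, 0 reversed, and 12 that had not passed did so under at least 1. After TNF in WT 5 members passed, and 3 to 5 when each library was left out, the 3 without WT TNF replicate 3. For the interaction of N108 against WT, 1 member passed, 0 with the GC trend removed and 0 with it removed together with a replicate block, and 0 to 2 when each library was left out. For M3 against WT, 0 passed, but 1 did with no filter on low counts and 1 with only the groups compared. For N108 against M3, 1 passed, 0 with the stricter filter, 0 with only the groups compared, 0 with the replicate block, and 0 to 2 when each library was left out. The causes of these changes were not tested. Deviations of libraries with the same replicate number from their group means correlated at -0.15 to 0.10 over 45 pairs, with 1 above 0.1. For libraries of different groups with different numbers the range was -0.10 to 0.11 over 90 pairs, with 2 above 0.1. The labels do not say what the shared numbers mean, and low correlations do not show that the libraries were unpaired. Under the replicate block alone, IRF1 in the interaction of N108 against M3 (-0.44, adjusted p = 0.12) and IFNGR2 in N108 against WT with TNF (0.11, adjusted p = 0.054) lost their calls. IRF9 had the fewest counts of the members, 47 in its lowest library, and 48.4% of its exon bases are shared with a gene on the same strand. The parts of depth and of this overlap in its low counts were not tested.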
